A study of Mus musculus with 16 samples.

Results

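The genes described here encode the protein subunits of the mitochondrial ribosome. They were taken as every gene whose platform symbol begins with Mrpl or Mrps followed by a number, which gave 76 genes on 110 probes, out of 16593 named genes in all. The probe with the highest mean over the 16 arrays stood for each gene. By their place in the ribosome 49 belong to the large subunit and 26 to the small subunit, and 1, Mrps36, carries the name but is known as a component of the 2-oxoglutarate dehydrogenase complex. Mrpl41 and Mrpl44 were not measured.

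Mitochondria translate the few membrane subunits of the respiratory chain that their own DNA encodes, on a ribosome whose RNA comes from that DNA and whose proteins are all encoded in the nucleus, made in the cytosol and imported. Some of these proteins have counterparts in bacterial ribosomes and others were added in mitochondria. Loss of single subunits impairs oxidative phosphorylation, the process by which fat-oxidising and energy-demanding cells make most of their ATP.

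The RNA came from cultured fibro/adipogenic progenitors (FAPs), the mesenchymal cells of skeletal muscle that support its repair and can turn into fibroblasts or fat cells. The 4 groups, of 4 arrays each, were wild-type cells given vehicle, wild-type cells given recombinant IL4, IL4RA -/- cells given vehicle and IL4RA -/- cells given recombinant IL4, all from mice of the Balb/cJ strain. IL4RA is the receptor chain that interleukin 4 (IL-4) and interleukin 13 share, and the labels give the -/- genotype with no restriction to a tissue or a time. The series describes the 4 arrays of a group as biological replicates without saying whether each was a separate mouse or culture. The titles number the wild-type vehicle arrays 1 to 4 and the wild-type IL-4 arrays 5 to 8. Both knockout groups are numbered 1 to 4. The wild-type response thus compares differently numbered arrays, and a difference between those sets cannot be told apart from IL-4. The IL-4 dose, the time of exposure and the age of the mice are not given in the sources used here.

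Values are signals on Illumina MouseRef-8 v2.0 bead arrays on a scale read as log2, where a difference of 1 is a doubling, and they ran from 7.72 to 14.77. The authors' normalization gave all arrays nearly the same distribution, so a shift in the RNA content of whole cells would leave no trace. A low signal is compressed towards the floor of the array. Of the members 6, or 7.9%, lay within 0.15 of the lowest value, against 53.3% of all genes. Of the FAP markers 11 were measured and 0 lay at that floor, with array means of 9.71 to 9.91. Near the floor were 7 of 10 markers of myogenic cells, 7 of 9 of macrophages and leukocytes, 7 of 9 of endothelium, 4 of 9 of pericytes and smooth muscle, and 3 of 4 of tenocytes and Schwann cells. The targeted gene, Il4ra, is the symbol of none of the named probes, and the genotype was not checked through it. In bulk RNA, fewer cells of a type and less RNA per cell cannot be told apart.

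The first comparison asks what IL-4 did to these genes in wild-type FAPs. IL-4 lowered 24 of the 76 members and raised 0 of them (limma, Benjamini-Hochberg adjusted p under 0.05 over all 25697 probes). Lower calls made up 8.79% and higher calls 7.14% of all genes, each read by its brightest probe, while 31.6% of the members were lower. At an unadjusted p under 0.05, 38 members were lower and 1 was higher. In either direction 39 members had such a p, against 4147 of all 16593 genes. With a mean signal between 8.5 and 10, it was 20 of 31 members against 1421 of 2555 genes. Above 10 it was 17 of 28 members against 815 of 1330 genes. In this upper range the share was thus no higher in the members. The median change over all 76 members was -0.13, against -0.002 over all genes, and 63 of the 76 estimates were below 0. The falls of the 24 ran from 0.13 to 0.44 with a median of 0.26, so that IL-4 left between 0.737 and 0.911 times the vehicle signal. In 23 of the 24 the 4 IL-4 arrays all lay below the 4 vehicle arrays, and Mrpl10 was the exception. In all, 24 members had groups that did not overlap in this direction, against a background of 10.5% of all genes, most of which lay near the floor. The contrast was smaller at matched signal. Between 8.5 and 10, it was 12 of 31 members against 620 of 2555 genes. Above 10 it was 12 of 28 members against 386 of 1330 genes.

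**Figure D1:**
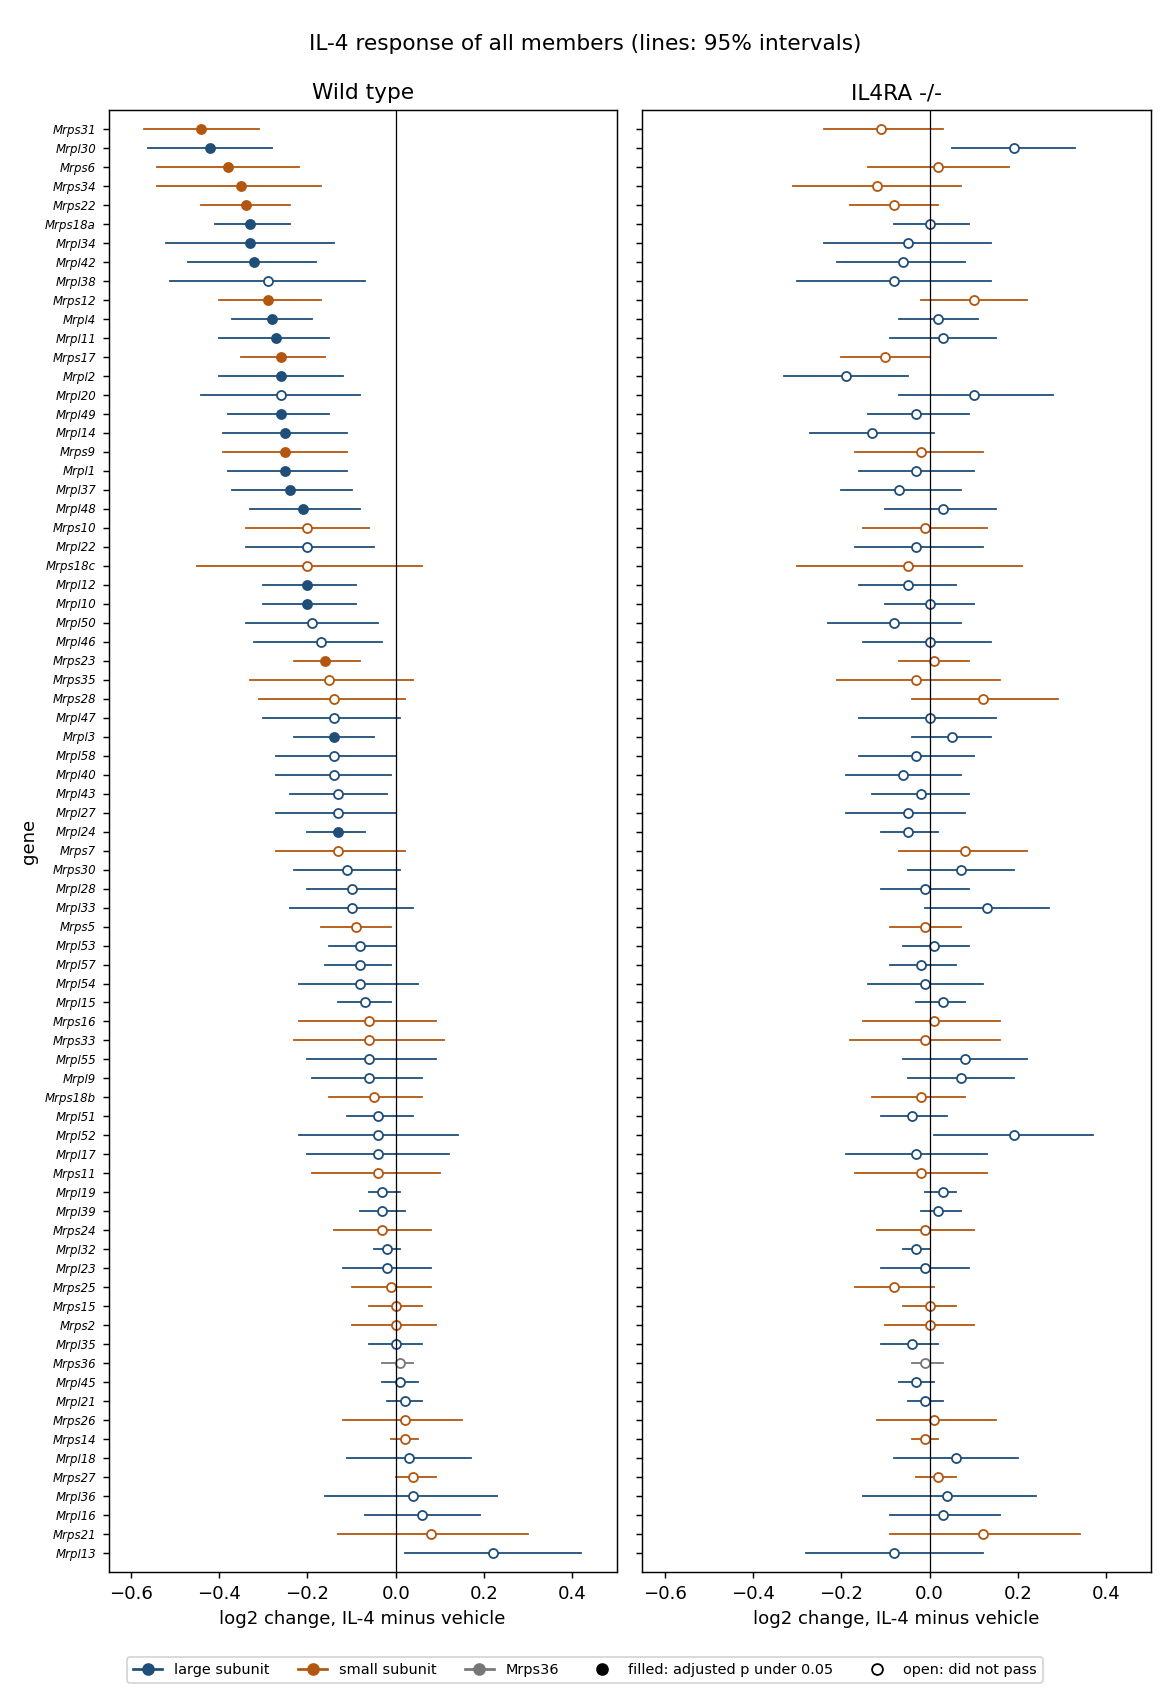
Change with IL-4 of each of the 76 members in wild-type cells (left) and in IL4RA -/- cells (right), in log2 units; points are the limma estimates from 4 arrays per group, lines their 95% intervals, and filled points passed the adjusted p of 0.05. All 24 filled points lie below 0 in the wild type, and no point is filled in the knockout.

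The share of members that were lower followed the height of the signal above the floor. None of the 17 members with a mean signal of at most 8.5 passed, 11 of 31 passed between 8.5 and 10, and 13 of 28 passed above 10. Among all genes in the same signal ranges the lower calls were 3.9%, 23.1% and 28.1%, against 35.5% and 46.4% of the members in the middle and upper range. Both the members and the genes around them were therefore called more often where the arrays read them well.

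Both subunits took part. Of the large-subunit members 16 of 49 were lower, with a median change of -0.13, and of the small-subunit members 8 of 26, with a median of -0.11. Proteins with bacterial counterparts and those added in mitochondria were also both represented. In the large subunit 11 of 30 of the first kind and 5 of 19 of the second were lower, and in the small subunit 4 of 15 and 4 of 11.

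Among the small-subunit members, Mrps31 and Mrps22 encode proteins that bacterial ribosomes lack. Mrps31 read 10.50, 10.65, 10.52 and 10.72 on the wild-type vehicle arrays and 10.20, 10.06, 10.21 and 10.16 on the wild-type IL-4 arrays. In IL4RA -/- cells it read 10.52, 10.45, 10.43 and 10.38 with vehicle and 10.20, 10.38, 10.28 and 10.50 with IL-4. The wild-type groups were apart and the knockout groups overlapped. Mrps31 fell by 0.44 in the wild type (SE 0.06, 95% interval -0.57 to -0.31, limma adjusted p = 0.000138), the largest fall of any member. Of its 4 probes 3 were lower.

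Mrps22 read 9.87, 9.86, 9.97 and 9.99 with vehicle and 9.57, 9.63, 9.64 and 9.48 with IL-4 in the wild type. Its knockout arrays read 9.58 to 9.65 with vehicle and 9.44 to 9.66 with IL-4. All 8 knockout arrays thus lay under every wild-type vehicle array. The wild-type fall was 0.34 (SE 0.05, limma adjusted p = 7.62e-05). Mrps34, another protein that bacterial ribosomes lack, fell by 0.35 (SE 0.09, limma adjusted p = 0.0115), from 11.46 to 11.59 with vehicle to 11.05 to 11.32 with IL-4.

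Mrps6 and Mrps12 have bacterial counterparts, and the Mrps12 protein lies at the decoding site, where codon and tRNA are matched. Mrps6 read 10.92, 10.84, 10.65 and 10.89 with vehicle and 10.46, 10.33, 10.39 and 10.60 with IL-4 in the wild type, and 10.91 to 11.25 over all 8 knockout arrays. The wild-type groups did not overlap, and only 1 wild-type array, at 10.92, reached the range of the knockout. Mrps6 fell by 0.38 in the wild type (SE 0.07, limma adjusted p = 0.00202). Mrps12 read 9.65, 9.67, 9.61 and 9.70 with vehicle and 9.54, 9.41, 9.26 and 9.29 with IL-4, a fall of 0.29 (SE 0.06, limma adjusted p = 0.0021). The gene of Mrps6 overlaps that of Slc5a3 in the annotation, and probe sequences were not used here, so which transcript its probe reads was not tested.

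Among the large-subunit members, Mrpl30 is a core protein with a bacterial counterpart. It read 10.87, 10.85, 10.56 and 10.65 with vehicle and 10.30, 10.31, 10.34 and 10.31 with IL-4 in the wild type. The knockout arrays read 10.40, 10.26, 10.43 and 10.49 with vehicle and 10.71, 10.58, 10.57 and 10.47 with IL-4. The wild-type values separated downwards, while the knockout values overlapped, with 3 of the 4 IL-4 arrays above every vehicle array. Mrpl30 fell by 0.42 in the wild type (SE 0.07, limma adjusted p = 0.000389).

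Mrps18a, which in spite of its name encodes a large-subunit protein, had the smallest adjusted p of any member. It read 10.29, 10.31, 10.38 and 10.47 with vehicle and 10.10, 10.03, 10.04 and 9.96 with IL-4 in the wild type, and 10.27 to 10.42 over the 8 knockout arrays. IL-4-treated wild-type cells were the low group and the other 3 groups overlapped. It fell by 0.33 (SE 0.04, limma adjusted p = 2.71e-05). Its gene overlaps that of Rsph9 in the annotation.

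Mrpl4 encodes a protein whose bacterial counterpart lines the tunnel through which the new chain leaves. It read 9.69, 9.63, 9.54 and 9.78 with vehicle and 9.46, 9.37, 9.35 and 9.33 with IL-4 in the wild type, and 9.20 to 9.28 over the 8 knockout arrays. The knockout arrays lay below all 8 wild-type arrays. The wild-type fall was 0.28 (SE 0.04, limma adjusted p = 0.000169). Mrpl42 fell by 0.32 (SE 0.07, limma adjusted p = 0.00329). Mrpl34 fell by 0.33 (SE 0.09, limma adjusted p = 0.0215), and its call was lost when wild-type vehicle array 4 or wild-type IL-4 array 6 or 8 was left out, with adjusted p-values of 0.0571 to 0.075.

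Mrpl10, Mrpl11 and Mrpl12 encode the stalk and its base, the part of the large subunit that receives translation factors, and in human cells MRPL12 is also known to bind the mitochondrial RNA polymerase. All 3 were lower with IL-4 in the wild type. Mrpl11 read 9.60 to 9.80 with vehicle and 9.28 to 9.57 with IL-4, a fall of 0.27 (SE 0.06, limma adjusted p = 0.00328). Mrpl12 read 11.20 to 11.41 with vehicle and 11.01 to 11.15 with IL-4, a fall of 0.20 (SE 0.05, limma adjusted p = 0.0173). Mrpl10 read 10.69 to 10.88 with vehicle and 10.52 to 10.71 with IL-4, a fall of 0.20 with overlapping groups (SE 0.05, limma adjusted p = 0.011), and both of its probes were lower. The Mrpl12 call was lost without wild-type vehicle array 2 or wild-type IL-4 array 7, with adjusted p-values of 0.055 and 0.0573.

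The remaining members that were lower were Mrpl1, Mrpl2, Mrpl3, Mrpl14, Mrpl24, Mrpl37, Mrpl48, Mrpl49, Mrps9, Mrps17 and Mrps23, with falls of 0.13 for Mrpl24 to 0.26 for Mrps17. Mrpl3, near the site where peptide bonds form, had the weakest call, with a fall of 0.14 (SE 0.04, limma adjusted p = 0.0438). Left out in turn, 6 of the 8 wild-type arrays, wild-type vehicle arrays 1 to 4 and wild-type IL-4 arrays 7 and 8, each ended that call, with adjusted p-values of 0.0541 to 0.128. The calls of Mrpl14, Mrpl37, Mrpl48 and Mrps9 were each lost without 2, 3, 3 and 4 of the 8 arrays, with adjusted p-values of 0.0511 to 0.098. These were vehicle array 3 and IL-4 array 8 for Mrpl14, vehicle arrays 1 and 4 and IL-4 array 8 for Mrpl37, vehicle array 1 and IL-4 arrays 5 and 8 for Mrpl48, and vehicle arrays 2 and 4 and IL-4 arrays 5 and 8 for Mrps9. The gene of Mrpl48 overlaps that of Rab6a in the annotation. Of the 24 lower members 7 had several probes. In Mrps31 and Mrpl10 more than 1 probe was lower, and 0 members had any probe that was higher. In the other 5 only the brightest was lower, although each had a further probe above the floor. All 4 probes of Mrpl49 lay above it.

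**Figure D2:**
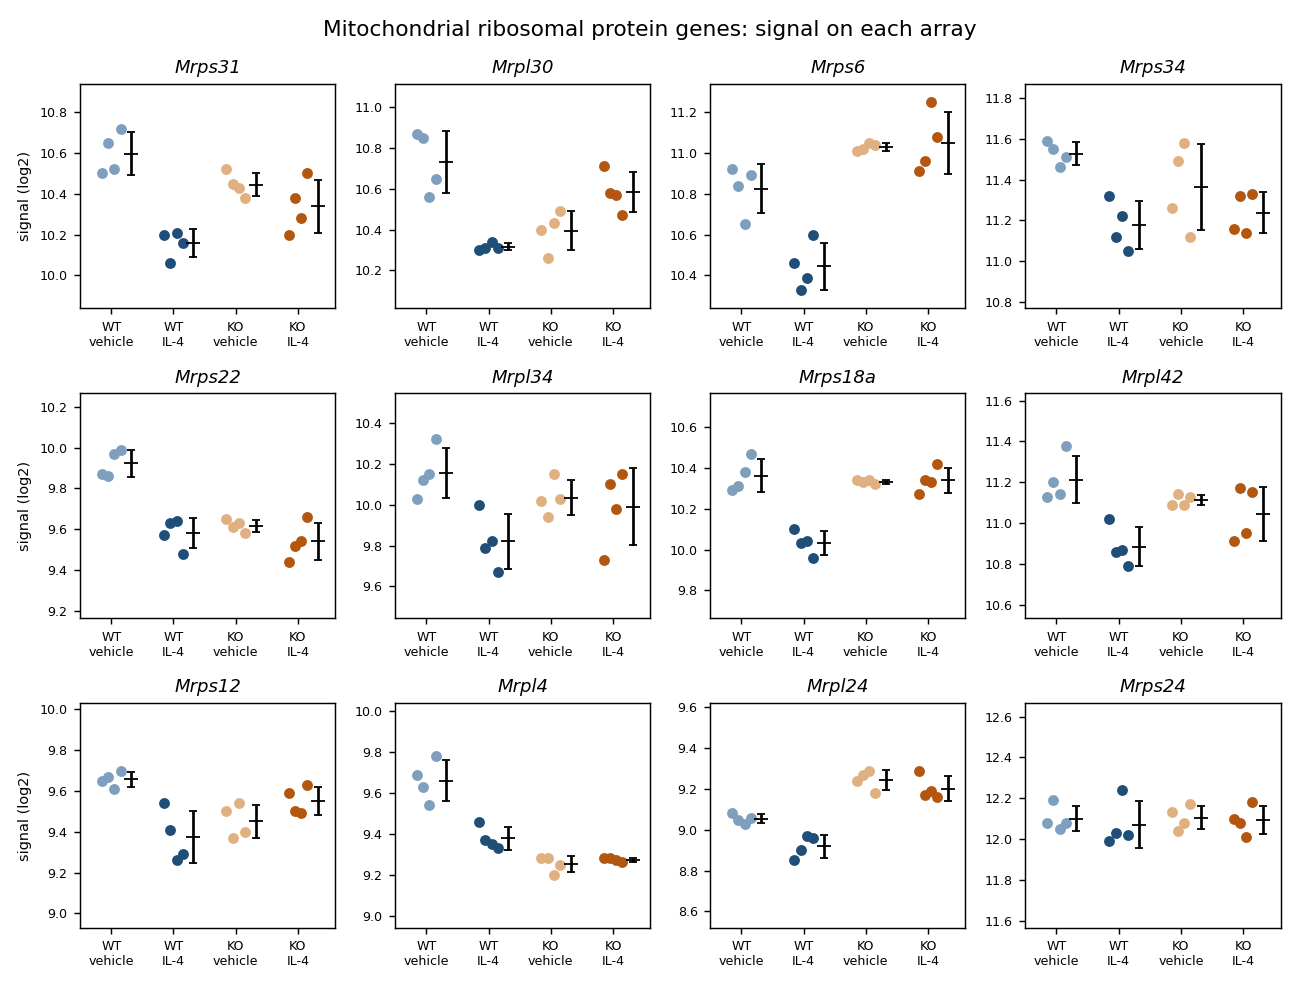
Signal (log2) on each of the 16 arrays for the 10 members with the largest called falls in the wild type, for Mrpl24 and for Mrps24; points are arrays, bars the group mean and SD of 4 arrays, WT is wild type and KO is IL4RA -/-, and each panel spans the same height. The wild-type IL-4 arrays lie under the wild-type vehicle arrays in the first 11 panels, and the 4 groups overlap for Mrps24.

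Several members with well-known roles did not pass in the wild type. Mrps24, a protein at the entry of the messenger RNA channel, read 12.05 to 12.19 with vehicle and 11.99 to 12.24 with IL-4, a difference of -0.03 (95% interval -0.14 to 0.08, limma adjusted p = 0.841). Mrpl45, which in mammals anchors the ribosome to the inner membrane, lay at the floor with a mean signal of 7.86, and a difference could not be read there. Mrps30 gave -0.11 (limma adjusted p = 0.266), Mrpl55 gave -0.06 (limma adjusted p = 0.741), and Mrps36 lay at the floor at 7.80.

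The 3 genes of the Mrps18 family differed in their estimates. Mrps18a fell as given above, Mrps18b gave -0.05 (95% interval -0.15 to 0.06) and Mrps18c gave -0.20 with a wide interval of -0.45 to 0.06. Mrpl20 gave -0.26 and just missed the threshold (limma adjusted p = 0.0529). The highest estimate was that of Mrpl13, at 0.22, whose IL-4 arrays read 10.65, 10.75, 11.20 and 11.03 against 10.61 to 10.76 with vehicle. It did not pass (limma adjusted p = 0.17) but passed as higher when wild-type IL-4 array 5 was left out.

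The next comparison asks whether the same treatment changed these genes without the receptor. In IL4RA -/- cells 0 of the 76 members passed in either direction, against 0.0% of all genes, and the smallest adjusted p was 0.863 (limma). At an unadjusted p under 0.05, 2 members were higher and 2 lower. The median change was -0.01, and single changes ran from -0.19 for Mrpl2 to 0.19 for Mrpl30 and Mrpl52. Of the 24 members that fell in the wild type, 21 had a 95% interval in the knockout that included 0. The median change of the 24 there was -0.03. Of all 16593 genes only 936 had an unadjusted p under 0.05 in the knockout, where this interval excludes 0. The count of 21 thus does not set these members apart from other genes. The intervals of Mrpl2, at -0.33 to -0.05, and of Mrps17 lay below 0, and that of Mrpl30, at 0.05 to 0.33, above it.

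The mean over all members on each array gives the same picture by group. It was 9.627 to 9.679 on the wild-type vehicle arrays and 9.488 to 9.550 on the wild-type IL-4 arrays. In the knockout it was 9.610 to 9.632 with vehicle and 9.587 to 9.656 with IL-4. The wild-type IL-4 arrays were thus below all other 12 arrays. The same mean over 63 cytosolic ribosomal protein genes, 11.342 to 11.350 with vehicle and 11.322 to 11.399 with IL-4, overlapped between the wild-type groups. Of these genes 5 (7.9%) were higher and 2 (3.2%) lower with IL-4 in the wild type. Of all genes 7.14% were higher and 8.79% lower, and 18.3% and 28.1% of those with a mean signal above 10.

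**Figure D3:**
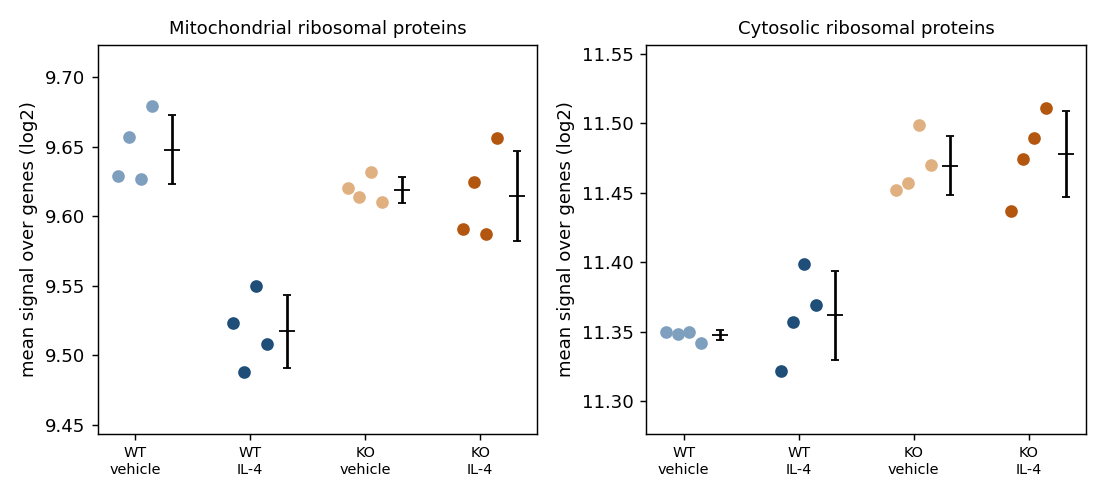
Mean signal (log2) per array over the 76 mitochondrial ribosomal protein genes (left) and over 63 cytosolic ribosomal protein genes (right), by group; points are arrays, bars the mean and SD of 4 arrays, WT is wild type and KO is IL4RA -/-. On the left the 4 wild-type IL-4 arrays lie at 9.488 to 9.550, under all others; on the right the wild-type groups overlap and the 8 knockout arrays lie above them.

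Whether the wild-type and the knockout response differed was tested directly as an interaction. The wild-type response was the lower of the 2 in 8 members and the higher in 0, against 5.27% of all genes called lower and 4.75% called higher. At matched signal the share of members was no higher than that of all genes, with 4 of 31 members (12.9%) against 378 of 2555 genes in the middle range and 4 of 28 (14.3%) against 236 of 1330 genes (17.7%) in the upper range. At an unadjusted p under 0.05, 24 members were lower and 1 was higher. In either direction 11 of 31 members had such a p in the middle range, against 1151 of 2555 genes. In the upper range it was 12 of 28 members against 674 of 1330 genes. This share too was no higher in the members. The 8 members that passed the adjusted threshold were Mrpl4, Mrpl11, Mrpl30, Mrps6, Mrps12, Mrps18a, Mrps22 and Mrps31. Mrpl30 had the largest difference, -0.61 (SE 0.09, limma adjusted p = 0.000624), made of a fall of 0.42 in the wild type and an estimate of 0.19 in the knockout. Mrps18a followed by p, with -0.33 (SE 0.06, limma adjusted p = 0.00112).

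The other 6 differences ran from -0.40 for Mrps6 to -0.26 for Mrps22, and the call of Mrps22 was lost under the trended, robust variance model (limma adjusted p = 0.0545). All 24 members that fell had an interaction estimate below 0, but for 16 of them the difference between genotypes did not pass. The 24 were picked for their wild-type fall, which is part of this difference, so its sign largely follows from the choice. Leaving out 1 array ended the call for Mrpl11 and Mrps6 in 5 of 16 cases each and for Mrps31 in 6 of 16, with adjusted p-values of 0.0502 to 0.0626. For Mrps6 these were wild-type vehicle arrays 1, 2 and 4 and wild-type IL-4 arrays 6 and 7. For Mrpl11 they were wild-type vehicle array 2, wild-type IL-4 arrays 7 and 8, and array 4 of both knockout groups. For Mrps31 they were wild-type vehicle arrays 2 and 4, wild-type IL-4 array 6, knockout vehicle arrays 3 and 4 and knockout IL-4 array 2. Without knockout vehicle arrays 2 and 3, which stood apart from the other arrays on the third principal component, 5 members passed, which were Mrpl4, Mrpl30, Mrps12 and Mrps18a of the 8 and also Mrps34. The median difference was -0.11 over the members and -0.001 over all genes. In the middle signal range it was -0.17 over members and -0.02 over genes, and in the upper range -0.14 and -0.04. The interaction shares all of its arrays with the 2 responses.

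The start regions of 4 of these genes are shown because they carry the DNA word found most often in the promoters of the members, the ETS core CCGGAAG, which factors such as GABPA are known to bind. They belong to the genes among the 10 largest falls that hold this word, which 4 of the 8 with a promoter in the RefSeq table did. Each runs 5′ to 3′ along the gene, from 250 bases before the start site to 50 after it, on GRCm38.p6, with every motif found in capitals. That of Mrps18a lies at chr17:46110754-46111053 on the plus strand, with the ETS core 26 bases before the start and a YY1 core (AAGATGG) 12 bases into the transcript. That of Mrps22 lies at chr9:98601630-98601929 on the minus strand, with the core 11 bases before the start. That of Mrpl34 lies at chr8:71464676-71464975 on the plus strand, with the core 37 bases before the start. That of Mrps12 lies at chr7:28741772-28742071 on the minus strand, with the core at base 2 of the transcript and a YY1 core on the other strand 198 bases before the start.
Mrps18a: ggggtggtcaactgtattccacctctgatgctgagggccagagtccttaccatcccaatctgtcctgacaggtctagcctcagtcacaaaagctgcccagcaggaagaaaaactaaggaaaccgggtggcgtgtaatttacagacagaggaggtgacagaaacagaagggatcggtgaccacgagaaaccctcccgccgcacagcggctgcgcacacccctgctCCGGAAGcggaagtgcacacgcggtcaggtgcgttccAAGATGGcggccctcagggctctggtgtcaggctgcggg
Mrps22: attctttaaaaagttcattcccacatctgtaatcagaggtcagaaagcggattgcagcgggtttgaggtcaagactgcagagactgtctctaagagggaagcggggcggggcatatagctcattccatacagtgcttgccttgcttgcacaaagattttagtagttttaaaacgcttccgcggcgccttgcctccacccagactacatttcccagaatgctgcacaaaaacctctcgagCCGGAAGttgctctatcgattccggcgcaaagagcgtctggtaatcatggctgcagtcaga
Mrpl34: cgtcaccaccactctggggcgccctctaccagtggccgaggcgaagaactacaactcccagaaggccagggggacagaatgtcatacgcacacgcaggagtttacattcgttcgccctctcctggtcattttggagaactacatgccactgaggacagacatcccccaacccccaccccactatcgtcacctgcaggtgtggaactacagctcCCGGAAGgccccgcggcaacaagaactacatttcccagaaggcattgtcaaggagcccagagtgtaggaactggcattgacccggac
Mrps12: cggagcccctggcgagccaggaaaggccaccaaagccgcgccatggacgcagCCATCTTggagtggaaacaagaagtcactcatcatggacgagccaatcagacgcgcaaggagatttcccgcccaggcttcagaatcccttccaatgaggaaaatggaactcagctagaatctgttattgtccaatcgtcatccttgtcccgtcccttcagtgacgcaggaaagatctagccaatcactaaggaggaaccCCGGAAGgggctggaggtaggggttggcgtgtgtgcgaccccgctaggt

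The same search over both strands of the 67 member promoters in the RefSeq table found the ETS core in 37.3%, against 11.9% of the promoters of 17491 protein-coding genes. The NRF1 core CGCATGCG was in 10.4% of member promoters against 2.5%, and the YY1 core AAGATGG in 19.4% against 6.4%. The E-box CACGTG was in 7.5% against 7.9%, and the STAT6 word, TTC and GAA with 4 bases between them, in 3.0% against 6.4%. Among the 22 members with a promoter that fell with IL-4 in the wild type, 27.3% held the ETS core, and among the other 45 members 42.2% did. The ETS core, the NRF1 core and the YY1 core were thus more frequent in the members' promoters than in coding genes at large, and the ETS core was no more frequent in those that fell. A match is a description of the letters and not of a bound factor.

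The genotypes were also compared under vehicle, which asks for differences present without added IL-4. There 1 member was higher in the knockout, against 1.42% of all genes, and 4 were lower, against 1.85%. Mrpl24, near the exit of the peptide tunnel, read 9.08, 9.05, 9.03 and 9.06 in the wild type and 9.24, 9.27, 9.29 and 9.18 in the knockout. The groups were apart, and Mrpl24 was higher in the knockout by 0.19 (SE 0.03, limma adjusted p = 0.00426). It did not pass without knockout vehicle arrays 2 and 3 (limma adjusted p = 0.0676). Its gene overlaps that of Rrnad1 in the annotation.

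Mrpl4, Mrpl30, Mrps22 and Mrpl3 were lower in the knockout under vehicle. Mrpl4 read 9.28, 9.28, 9.20 and 9.25 there, 0.754 times the wild-type signal (log2 difference -0.41, SE 0.04, limma adjusted p = 7.45e-05). Mrps22 differed by -0.30 (SE 0.05, limma adjusted p = 0.00232), Mrpl30 by -0.34 (SE 0.07, limma adjusted p = 0.0134) and Mrpl3 by -0.18 (SE 0.04, limma adjusted p = 0.0299). The Mrpl3 call was lost without knockout vehicle array 2 or 4 or any wild-type vehicle array, with adjusted p-values of 0.051 to 0.0864. The Mrpl30 call was lost without knockout vehicle arrays 2 and 3 (limma adjusted p = 0.104), with the replicate block (limma adjusted p = 0.177) and in a fit to those groups alone (limma adjusted p = 0.0729). The wild-type vehicle arrays serve both here and in the wild-type response, and these 4 genes fell with IL-4 in the wild type. The median difference over all members was -0.01. At matched signal the lower share was near that of all genes, 6.5% of members against 4.7% in the middle range and 7.1% against 7.6% in the upper range.

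Under IL-4 17 members were higher in the knockout than in the wild type and 0 were lower, against 9.11% and 8.18% of all genes. At matched signal, 35.5% of members were higher against 23.6% of all genes in the middle range, and 21.4% against 26.2% in the upper range. At an unadjusted p under 0.05, 29 were higher and 3 lower, and the median difference was 0.06. In either direction 17 of 31 members had such a p in the middle range, against 1496 of 2555 genes. In the upper range it was 12 of 28 members against 845 of 1330 genes. By this count the members differed no more often than all genes at matched signal. Mrps6 showed the largest difference, 0.61 (SE 0.07, limma adjusted p = 3.03e-05), which is 1.52 times the wild-type signal. Mrpl24 differed by 0.28 with the smallest adjusted p (SE 0.03, limma adjusted p = 1.52e-05). It was also higher in the knockout under vehicle, by 0.19, and its interaction of -0.09 did not pass (limma adjusted p = 0.334). The wild-type IL-4 arrays are the ones that give the falls above, and 10 of the 24 members that fell passed here.

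Members that had not passed in the wild-type response also passed here. Mrpl20, needed early in the assembly of the large subunit in bacteria, read 9.19, 9.33, 9.43 and 9.50 in the wild type and 9.95, 9.99, 9.58 and 9.81 in the knockout. It was higher in the knockout by 0.47 with groups apart (SE 0.08, limma adjusted p = 0.00095). Mrpl33 read 11.39, 11.63, 11.70 and 11.67 in the wild type and 11.86, 12.12, 12.05 and 11.93 in the knockout, a difference of 0.40 (SE 0.07, limma adjusted p = 0.000512). Mrpl52 differed by 0.37 (SE 0.08, limma adjusted p = 0.0053).

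The other named differences under IL-4 were 0.30 for Mrps18a, 0.27 for Mrpl30, 0.26 for Mrpl48, 0.24 for Mrps9, 0.23 for Mrps10, 0.21 for Mrps30 and 0.18 for Mrps12. Those of Mrps9, Mrps10, Mrps12 and Mrps30 were lost without 4, 5, 6 and 1 of the 8 arrays, at adjusted p-values of up to 0.0856, 0.0877, 0.13 and 0.0562. The arrays were knockout 1 and 4 and wild-type 5 and 8 for Mrps9, knockout 1 to 3 and wild-type 5 and 7 for Mrps10, and knockout 1, 2 and 4 and wild-type 6 to 8 for Mrps12. For Mrps30 it was wild-type IL-4 array 6.

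Genes that serve the mitochondrial ribosome from outside were compared in the wild-type response. The lists were not matched for signal. Of all genes 8.79% were lower, and 23.1% and 28.1% in the middle and upper signal ranges. Lower calls made up 33.3% of the translation factors, 16.7% of the assembly genes and 23.5% of the genes that charge tRNAs. Of 15 translation factors 5 were lower with IL-4 and 0 higher, among them Tufm, the elongation factor that brings tRNA to the ribosome, with a fall of 0.34 (SE 0.08, limma adjusted p = 0.00563), and Gfm2, which helps to recycle ribosomes, with a fall of 0.25 (SE 0.04, limma adjusted p = 0.000301). Of 24 genes of ribosome assembly and rRNA modification 4 were lower and 0 higher, led by the helicase Ddx28 and the GTPase Noa1, each with a fall of 0.30. Of 17 genes that charge mitochondrial tRNAs 4 were lower, with falls of 0.23 for Gatb and 0.20 for Fars2.

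Of 12 genes of mitochondrial DNA transcription and maintenance 2 (16.7%) were lower. These were the elongation factor Tefm by 0.28 and the RNA polymerase Polrmt by 0.26 (limma adjusted p = 0.000175). Tfam, which packages that DNA, gave -0.03 (95% interval -0.11 to 0.06, limma adjusted p = 0.822). Of 21 import and folding genes 5 (23.8%) were lower, including Grpel1 by 0.34 and Timm44 by 0.31, both partners of the import motor. Dap3, a small-subunit protein outside the naming rule, gave -0.12 (limma adjusted p = 0.218), and of its list of 4 none passed.

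Of 12 nuclear regulators of mitochondrial genes 3 (25.0%) were lower. Ppargc1b, a coactivator known for driving mitochondrial biogenesis, was 9.60 ± 0.09 (SD, n = 4) with vehicle and fell by 0.60 with IL-4 (SE 0.07, limma adjusted p = 4.02e-05). Esrra, a nuclear receptor that PGC-1 coactivators bind, fell by 0.18 (SE 0.05, limma adjusted p = 0.0162). Nrf1 gave 0.09 (limma adjusted p = 0.292), Gabpa 0.05 and Myc -0.05 (limma adjusted p = 0.131), and none of the 3 passed. Cytosolic ribosome biogenesis ran the other way, with 7 of 25 genes (28.0%) higher and 0 lower, among them Nop56 by 0.45 and Gnl3 by 0.43. Of all genes 7.14% were higher, and 17.3% and 18.3% in the middle and upper signal ranges.

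**Figure D4:**
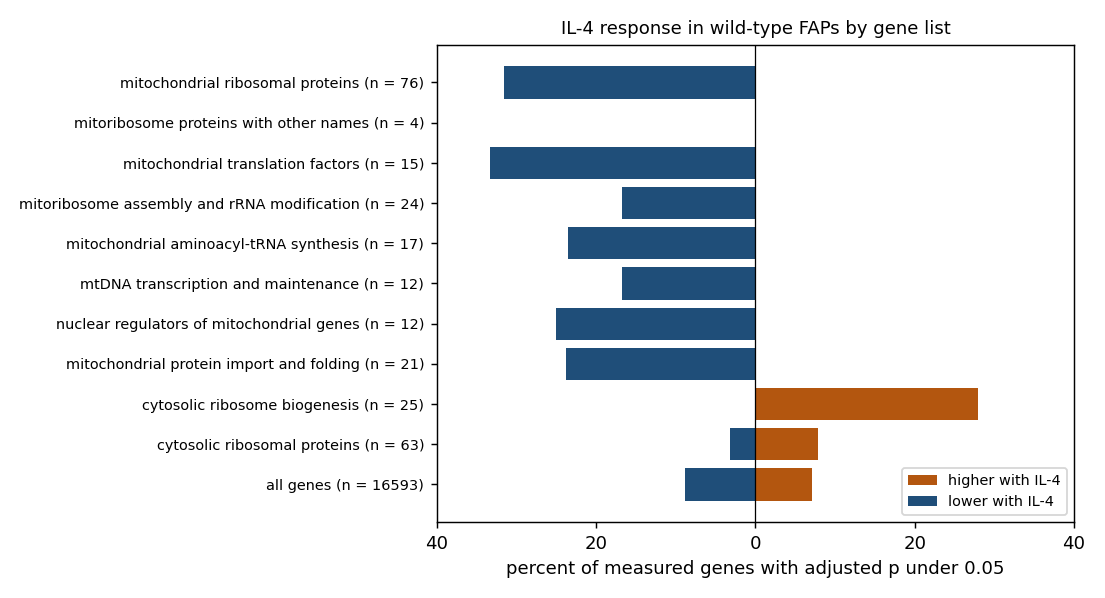
Percent of the measured genes of each list that were higher (right) or lower (left) with IL-4 in wild-type cells at a limma adjusted p under 0.05, with the number of genes beside each name. The bar of the mitochondrial ribosomal proteins reaches 31.6% on the lower side and 0.0% on the higher side, and that of all genes 8.8% and 7.1%.

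Markers of other cells were read beside the fall. Over 9 genes that mark macrophages and other leukocytes the mean signal was 8.02 to 8.05 on the wild-type vehicle arrays and 7.89 to 7.93 on the wild-type IL-4 arrays, and 8.04 to 8.11 in the knockout. Its 1 called marker was Lyz2, which fell by 1.07 (SE 0.07, limma adjusted p = 3.65e-08), and 7 of the 9 lay at the floor. Over 9 pericyte and smooth muscle markers the mean was 8.77 to 8.81 with vehicle and 8.71 to 8.75 with IL-4 in the wild type, and 8.71 to 8.79 in the knockout. There Mcam was the 1 called marker, with a fall of 0.58 (SE 0.05, limma adjusted p = 1e-06), and 4 of the 9 lay at the floor. Over 9 endothelial markers the mean was 7.85 to 7.88 with vehicle and 7.84 to 7.86 with IL-4, and Tek, with a fall of 0.14, was the 1 called marker (SE 0.04, limma adjusted p = 0.0442). The part of these markers in the fall of the mitochondrial ribosomal protein genes was not tested. Of the 11 FAP markers 4 were higher and 3 lower with IL-4 in the wild type.

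Members did not all vary together over the 16 arrays. Pearson's r of a member with the mean of the other members was highest for Mrps18a, at 0.93, and Mrps31, at 0.92, and lowest for Mrps14, at -0.47, and Mrps27, at -0.45. It was over 0.5 in 35 members and below 0 in 12. These values are descriptions, since the arrays share their groups. Among the 16517 genes that are not members, those whose signal ran most like the mean of the members over the 16 arrays were Prrg2 (r = 0.959), 1110008P14Rik (r = 0.947), Calcoco1 (r = 0.943), Cox14 (r = 0.938) and Agt (r = 0.938). They were picked by this match, so a fall in the wild type with little change in the knockout follows from the choice. Cox14, an assembly factor of cytochrome c oxidase, fell by 0.66 with IL-4 in the wild type (SE 0.05) and gave -0.00 in the knockout. Prrg2, a membrane protein with a Gla domain, fell by 0.40 (SE 0.04) and gave -0.05 in the knockout.

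Many of these genes share a start region with another gene. Of the 67 members with a start site in the RefSeq table, 24 had a protein-coding neighbour on the other strand that starts within 1000 bases and runs away from them, in 23 pairs, and 20 of these neighbours were measured. Mrpl46 and Mrps11, both members, are neighbours of each other and both count among the 20. The gap between the starts of Mrpl48 and Rab6a was -36 bases, so these genes overlap there. With IL-4 in the wild type 4 of the 20 neighbours were lower and 2 higher, against 8.79% and 7.14% of all genes. Fau, which starts beside Mrpl49 and encodes a fusion with a cytosolic ribosomal protein, fell by 0.22 (SE 0.05, limma adjusted p = 0.0089). Mrpl49 fell by 0.26 on its brightest probe, the only 1 of its 4 that was lower. Klc4 fell by 0.18 beside Mrpl2 and Cyb5rl by 0.13 beside Mrpl37. Ndufb5, a respiratory chain subunit, fell by 0.18 (SE 0.05, limma adjusted p = 0.0339) beside Mrpl47, which did not pass. Beside members that fell, 3 neighbours did not pass, which were Tmem63b with -0.01 beside Mrpl14, Rab6a with 0.06 beside Mrpl48 and the serine-tRNA ligase gene Sars2 with -0.02 beside Mrps12. Ncapd2 was higher by 0.22 beside Mrpl51 and Ska3 by 0.13 beside Mrpl57, and neither of these members passed.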

How the data were processed

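The authors deposited normalized values, 1 for each probe on each array, on a scale inferred to be log2. The sorted values of any pair of arrays differ by at most 0.000592. Software, background correction and log base are not given in the sources used here. RNA was purified with RNeasy columns, and Cy3 was the dye, per the labels. Probes were named through the platform annotation, in which 23978 of 25697 had 1 symbol, 0 had several and 1719 had none.

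With limma 3.58.1 in R 4.3.3, group means were fitted over the 16 arrays together, with no filter, 12 residual degrees of freedom and empirical Bayes moderation. All p-values are two-sided, and in each of 5 comparisons the Benjamini-Hochberg adjustment ran over all probes, at a threshold of 0.05. They measure only the spread between these arrays. The code was tested on simulated data. Sequences are RefSeq's for GRCm38.p6, and motif positions count the start site as base 1.

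The members and the gene lists were chosen with earlier results of these data known. Members named were the 10 largest called rises and falls per comparison and a set chosen for role, and 2 each way per list. Level ranges, divergent neighbours, Mrpl13 and other names outside this rule were added after the values were seen. Alternatives were median centring, repeated quantile normalization, only the brighter probes, 50 added before the log, a trended robust variance, weights per array, an adjusted p under 0.01, a fold of at least 1.2, fits to the compared groups alone, a replicate block, the mean of all probes and each array left out. Leaving out knockout vehicle arrays 2 and 3 together was chosen after seeing the data. The number of arrays limits the precision.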

Additional observations from a re-analysis of the deposited data

Results flagged for a closer look

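In 8 members the IL-4 response differed between genotypes by the interaction test, each value being the wild-type minus the knockout response in log2. In both the middle and the upper signal range, the share of members called lower by this test was no higher than that of all genes. The count of 8 thus does not set the members apart from other genes read at such signals. The differences were -0.61 for Mrpl30, -0.40 for Mrps6, -0.39 for Mrps12, -0.34 for Mrps31, -0.33 for Mrps18a, -0.31 for Mrpl11, -0.30 for Mrpl4 and -0.26 for Mrps22.

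In 6 of 124 groups of 4 arrays, over 31 named members, 1 array stood far from its group, and chance gives about 1 in 20. Wild-type IL-4 array 8 read 10.17 for Mrpl3, with the others at 10.35 to 10.37. Wild-type vehicle array 1 read 9.75 for Mrpl48, with the others at 9.48 to 9.51. Knockout IL-4 array 4 read 9.25 for Mrps10, with the others at 9.46 to 9.49. Mrps18b read 10.44 on wild-type vehicle array 2, with the others at 10.34 to 10.36, and 10.16 on knockout vehicle array 4, with the others at 10.36 to 10.37. Wild-type IL-4 array 7 read 12.24 for Mrps24, with the others at 11.99 to 12.03. The called falls of Mrpl3 and Mrpl48 in the wild type were lost without the array given here, and no cause was tested.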

How the results depend on the processing

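The 24 lower members in the wild type became 13 at an adjusted p under 0.01 and 12 with a fold of at least 1.2 as well, and 19 to 26 when 1 array was left out. Members called higher there ran from 0 to 1 when 1 array was left out, the 1 being Mrpl13. The 8 members with a lower wild-type than knockout response became 4 at 0.01, 5 without knockout vehicle arrays 2 and 3, and 6 to 12 with 1 array left out. Under vehicle, the 1 higher member became 2 with the brighter probes, the trended robust variance, the replicate block and the mean of all probes, and 0 without knockout vehicle arrays 2 and 3 or with a fold of at least 1.2. The 4 lower members became 7 with the brighter probes, 2 with the replicate block and 2 at 0.01. Under IL-4, the 17 higher members became 8 at 0.01 and 7 with a fold of at least 1.2, and ran from 12 to 16 with 1 array left out. Of lower members there were 2 with only the groups compared, 1 with the mean of all probes and 0 to 1 with 1 array left out, and the median difference ran from 0.043 to 0.094. Beyond single arrays, the trended robust variance also ended the wild-type calls of Mrpl12 (adjusted p = 0.0505), Mrpl24 (0.103) and Mrpl3 (0.203), the vehicle call of Mrpl3 (0.134) and the IL-4 call of Mrps12 (0.0504). In the fit to only the groups compared, Mrpl3 (0.109) and Mrpl48 (0.0918) lost their wild-type calls and Mrps9 (0.0638) and Mrps12 (0.115) their IL-4 calls. With the mean of all probes Mrpl3 lost its wild-type call (0.314) and its vehicle call (0.819), and the latter also with the replicate block (0.0585). In the knockout 0 members passed under every alternative run. The causes of these shifts were not tested beyond the stricter thresholds and fewer arrays. Same-numbered arrays did not deviate together: the correlations of deviations were 0.154, 0.058, -0.058 and -0.234 for knockout vehicle and IL-4, so the numbers were not used as pairs. Dim probes limit what can be read, since a signal near the floor compresses any change.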
